A study of Homo sapiens with 10 samples.

Results

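The Mediator complex was followed through its 32 human genes in K562, an established human leukemia cell line of erythroid and megakaryocytic character. The members were a fixed list, MED1, MED4, MED6 to MED31 with the paralogues MED13 and MED13L, and the kinase module genes CDK8, CDK19 and CCNC. All 32 were found among the 59204 human genes of the count tables. A further paralogue, MED12L, was not on the list and reached at most 3 total counts, in 1 library.

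Mediator is the large coactivator that joins DNA-bound transcription factors to RNA polymerase II at promoters. Its head and middle modules contact the polymerase, its tail module holds most of the surfaces that bind activators, MED14 is the scaffold that joins them, and a kinase module docks reversibly on the core. In blood cells, enhancers that keep lineage genes on are rich in Mediator and acetylated histones. The values here are mRNA levels of its subunits, not the complex itself.

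Cells were exposed to a drug for 2 hours, with 100 µM 4-thiouridine present in the last 1 hour, and 2 libraries were made per group. One group had AZ-5576 at 1 µM, which blocks CDK9 and so the release of polymerase from its pause, and another had actinomycin D at 1 µg/mL, which binds DNA and blocks elongation. The next group had A-485 at 1 µM, an inhibitor of CBP and p300, both histone acetyltransferases. JQ1 was used at 1 µM and takes BET bromodomain proteins off chromatin, and the vehicle group had DMSO. In SLAM-seq the incorporated 4-thiouridine is seen as T-to-C changes in reads from the poly(A) end, so labelled reads stand for RNA made within that hour and total reads for the whole mRNA pool.

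The libraries held between 14916671 and 17918971 human reads. Levels are given as spike-in RPM, the reads of a gene for every 1000000 Drosophila spike-in reads, unless called counts. Spike-in RNA was added to purified RNA, so a level is relative to the RNA taken, and fewer cells and less RNA per cell cannot be told apart. The labels do not say that the 2 libraries of a group came from separate cultures, so p-values measure the spread between these libraries, which may be technical. All 10 markers of K562 fixed for the check were counted in every library, with summed counts of 61502 to 79274. The 14 markers of other cell types summed to 1948 to 2304 counts in all groups alike, with EPCAM, CD3D and LYZ among those counted, while KRT5 and MS4A1 were at 0 in all 10 libraries.

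In DMSO the Mediator mRNAs differed widely in how many of their reads carried the label. The labelled share is the percentage of a gene's reads that carried the label, and it was highest for MED26, the middle subunit that exchanges with the kinase module on the core complex and recruits elongation factors. MED26 had 74 labelled of 281 reads and 77 labelled of 302 reads in the DMSO libraries, a share of 25.9% ± 0.592 (SD, n = 2; pooled 95% Wilson interval 22.5 to 29.6%). MED17, a core head subunit, followed with 23.8% ± 10.6, but its libraries lay apart at 31.2% and 16.3%. MED9 of the middle module had 21.3% ± 2.29, MED18 of the head 19.5% ± 3.70, and MED13, which tethers the kinase module to the core, 15.7% ± 1.33.

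Several tail genes sat at the other end. MED24, a tail subunit and the member with the most reads, had 81 labelled counts in each DMSO library out of 5790 and 5614, a share of 1.42% ± 0.0310, and MED27 had 1.54% ± 0.665. MED25, a tail-associated subunit known as a docking site of viral activators, had 0.277% ± 0.0661. The median over the 32 members was 4.95%, beside 3.71% over the 10409 genes with at least 50 total counts. Over the 31 members that reach 50 counts, without MED7, it was 4.26%. Of the members, 11 lay in the top 20% of those genes, with shares of at least 8.76%, and 4 in the bottom 20%. The median of the members was 5.01% and 6.00% in the 2 DMSO libraries taken singly. The interval covers counting error only, since PCR copies of a molecule were not told apart. New RNA whose read shows no T-to-C change goes unseen. That loss can differ between genes, and the shares were not corrected for it.

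New RNA of nearly every Mediator gene was lost under the CDK9 inhibitor and under actinomycin D. Summed labelled counts of the 32 members were 72 and 105 with AZ-5576 and 3 and 0 with actinomycin D, against 1138 and 1107 in DMSO. Scaled to the spike-in, AZ-5576 left 7.47% and actinomycin D 0.123% of the DMSO sum, beside 12.5% and 0.303% for all human labelled reads. Without MED27, left out after its values were seen, the other 31 members kept 4.91% with AZ-5576. The drug libraries lay far below DMSO in both sums, without overlap.

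With AZ-5576, 27 of the 28 members that passed the filter on low counts were lower than DMSO (edgeR quasi-likelihood test, Benjamini-Hochberg adjusted p under 0.05), where 94.7% of the 7996 genes tested were lower and 0.2% higher. With actinomycin D all 28 were lower, where 99.2% of genes were lower and 0% higher. MED7, MED12, MED16 and MED30 had too few labelled reads to be tested. These shares of members are close to those of all genes. When libraries were scaled to human labelled reads (TMM), which sets each gene against the others, 6 members were lower and 1 higher with AZ-5576, and MED1 was the 1 lower member with actinomycin D. Of all genes 33.5% were called with AZ-5576 and 8.28% with actinomycin D under that scaling.

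Counts set how firmly the size of these losses can be stated. Under AZ-5576, 18 members had no labelled count in either library, and under actinomycin D 30 had none. MED28, a tail subunit, had 0 and 0 labelled counts with AZ-5576, against 38 and 45 in DMSO, which with a floor of 3 counts over the group is at least 28.97-fold lower. On the same floor MED9 (0 and 0, against 41 and 36 counts in DMSO) was at least 26.9-fold lower with AZ-5576, and MED23 (0 and 0, against 27 and 40) at least 23.4-fold lower. The head subunit MED6 (0 and 0 against 32 and 33 counts) and the middle subunit MED10 (0 and 0 against 34 and 31) were each at least 22.7-fold lower. Over the 14 members for which the floor gives a bound with AZ-5576, it ran from 4.54-fold to 28.97-fold. With a fixed floor the order of the bounds is that of the DMSO counts, so it does not rank the losses.

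MED1, the middle subunit that binds nuclear receptors, had 3 and 13 labelled counts with AZ-5576 and 0 and 0 with actinomycin D, against 122 and 140 in DMSO. That is 5.62% of the DMSO level with AZ-5576 and at least 98.6-fold lower with actinomycin D, the largest bound among the 26 members that have one there. MED24 (at least 60.9-fold), MED26 (56.8-fold), MED15 (53.4-fold) and MED18 (51.5-fold) came next with actinomycin D, in the order of their DMSO counts. MED26 still had 5 and 2 labelled counts with AZ-5576, against 74 and 77 in DMSO. The scaffold gene MED14 had none with either drug, against 7 and 24 counts in DMSO.

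In the kinase module the labelled sum fell to 8.08% of DMSO with AZ-5576. The counts of MED13L, the MED13 paralogue, were 6 and 13 with AZ-5576, against 38 and 64 in DMSO, a fitted log2 fold change of -2.49 (SE 0.51, edgeR adjusted p = 2.19e-06). MED13 had 10 and 2 counts against 61 and 60 (-3.36, SE 0.53). With TMM scaling both values turned positive, MED13L to 1.00 and MED13 to 0.13, and neither was called. There were few labelled reads of CCNC, the cyclin of the module, at 3 and 0 with AZ-5576 against 68 and 50 in DMSO. CDK19 had 0 and 0 against 24 and 16. CDK8 had 0 and 0 counts with AZ-5576 against 5 and 1 in DMSO, and MED12, the subunit that activates the kinase, 0 and 0 against 7 and 12. Both are too thinly covered for a firm size.

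MED27 was the exception under CDK9 inhibition. It encodes a tail subunit and spans 219.8 kb on the minus strand at chr9:131860107-132079908 (hg38). Its labelled counts were 23 and 41 with AZ-5576 and 1 and 0 with actinomycin D, against 38 and 19 in DMSO. The AZ-5576 and DMSO libraries overlapped, and the actinomycin D libraries lay far below both. The log2 fold change with AZ-5576 was 0.09 (SE 0.48, edgeR adjusted p = 0.849), and with TMM scaling it was 3.59, higher relative to other genes. Its total RNA was 1107 and 1214 RPM with AZ-5576 against 995 and 973 in DMSO, which was not called (0.24, SE 0.10, edgeR adjusted p = 0.139) but was called higher with TMM (0.38).

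Spearman's rho between gene length and the labelled level left by AZ-5576 was 0.31 over the 28 tested members, as a description. The longest member, MED13L (323.8 kb), kept 17.4% of its DMSO level, MED13 (122.7 kb) 9.88% and MED15 (91.7 kb) 13.2%. In contrast CDK19 (206 kb) and CDK8 (151.1 kb) had no labelled counts with AZ-5576, with few counts in DMSO. Short MED18 (7 kb) kept 8.73%, resting on 2 and 11 counts.

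**Figure D1:**
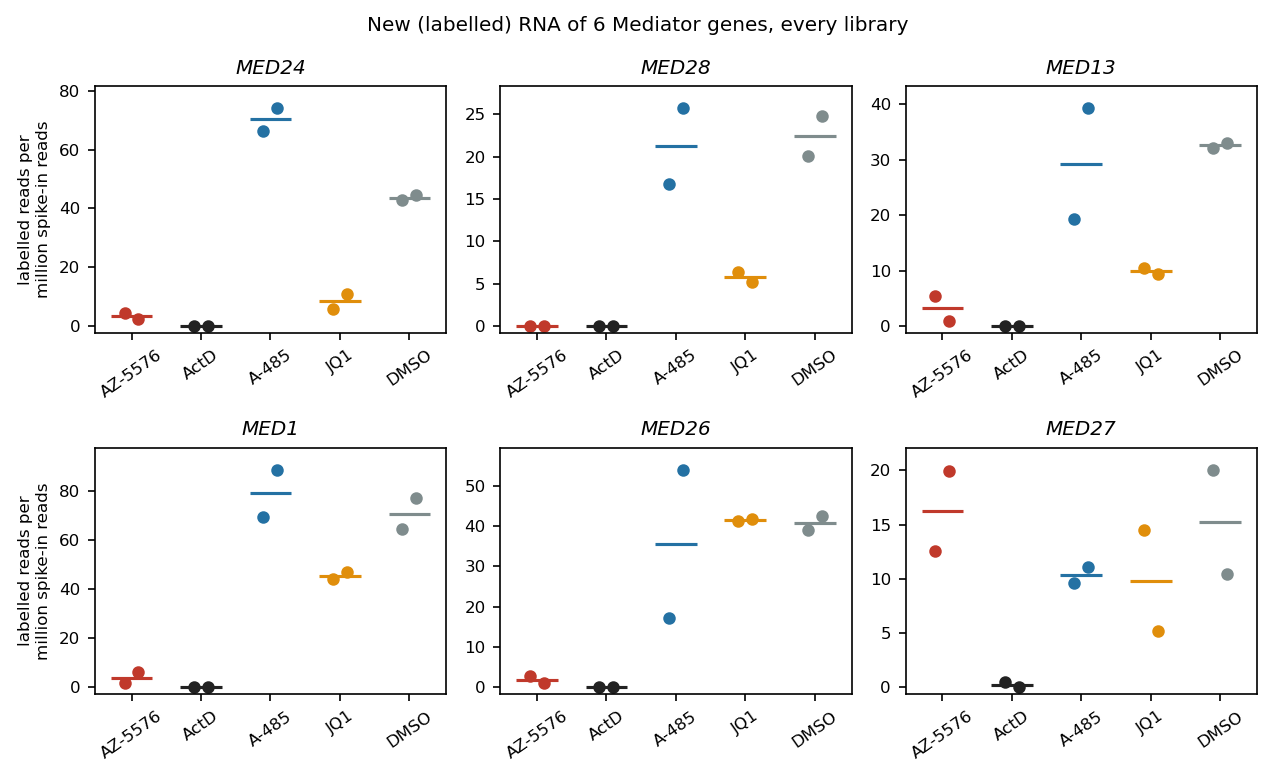
Labelled spike-in RPM (vertical axis, linear from 0) of 6 Mediator genes in every library, by drug; ActD is actinomycin D, dots are libraries and bars the mean of 2. MED27 has AZ-5576 libraries at 12.6 and 19.9 beside DMSO at 20.0 and 10.5, while MED24 is low with JQ1 (5.88 and 10.9) and high with A-485 (66.5 and 74.1).

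Promoter sequence of 24 of the 32 members was available from RefSeq (GRCh38.p14), each 250 bases before to 50 bases after the start. They were scanned on both strands for 6 short motifs. These were the CCAAT box, the GC box with the letters GGGCGG, the ETS site with the letters CCGGAAG, the E-box with the letters CACGTG, the GATA site with the letters AGATAA and the TATA box, for which the sequence searched was TATAAA. GC boxes were in 16 of the 24, beside 45.0% of 35116 promoters, and CCAAT boxes in 9, beside 34.6%. ETS sites were in 7, beside 10.3%, TATA boxes in 2, beside 11.5%, E-boxes in 2, beside 7.3%, and a GATA site in 1, beside 10.3%. Members were counted as genes with a match in any of their promoters, and the background as single promoters. That background was not limited to genes read in K562, and no difference was tested. The 3 promoters below belong to genes that stood apart in these data. They are MED26 for its labelled share, MED24 for its opposite values under JQ1 and A-485, and MED27 for its label under AZ-5576. All 3 are on the minus strand and are written 5′ to 3′, with matches to the 6 motifs on either strand in capitals. The 7 GC boxes of MED26 include an overlapping pair, MED24 has 2 CCAAT boxes, one on each strand, and MED27 has none of the 6 motifs in this window. A match is a description of the letters and not a bound site.
MED26 chr19:16628155-16628454: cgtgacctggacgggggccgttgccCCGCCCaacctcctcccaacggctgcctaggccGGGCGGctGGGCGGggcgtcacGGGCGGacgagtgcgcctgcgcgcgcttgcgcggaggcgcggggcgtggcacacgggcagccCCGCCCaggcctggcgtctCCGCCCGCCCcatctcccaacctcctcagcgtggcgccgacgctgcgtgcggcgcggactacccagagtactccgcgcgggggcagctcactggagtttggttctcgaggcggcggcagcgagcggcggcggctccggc
MED24 chr17:40054359-40054658: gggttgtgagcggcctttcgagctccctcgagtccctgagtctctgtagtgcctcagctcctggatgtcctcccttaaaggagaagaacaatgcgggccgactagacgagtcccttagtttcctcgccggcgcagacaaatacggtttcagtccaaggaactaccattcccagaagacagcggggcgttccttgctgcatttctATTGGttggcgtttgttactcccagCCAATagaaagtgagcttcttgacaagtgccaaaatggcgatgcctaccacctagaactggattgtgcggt
MED27 chr9:132079818-132080117: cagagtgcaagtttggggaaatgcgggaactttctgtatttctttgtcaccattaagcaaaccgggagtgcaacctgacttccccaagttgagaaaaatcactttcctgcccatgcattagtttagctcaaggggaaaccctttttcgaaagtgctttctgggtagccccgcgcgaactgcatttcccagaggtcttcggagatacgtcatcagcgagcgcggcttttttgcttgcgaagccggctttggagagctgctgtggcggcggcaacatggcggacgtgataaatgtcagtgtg

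In total RNA, the mRNAs of some subunits were lower after 2 hours. With AZ-5576, 10 of 32 members fell (31.2%, beside 12.9% of the 14572 genes tested, edgeR adjusted p under 0.05) and none rose (0.782% of all genes did). With actinomycin D 10 also fell (31.2%, beside 19.7% of all genes) and none rose (0.336% of all genes). The shares of all genes, here and below, were not matched for reads, and genes with few reads are harder to call. An average of at least 50 total counts in DMSO was reached by 31 of the 32 members. It was reached by 10409 genes in all, fewer than the 14572 tested. The median log2 fold change over the members was -0.31 with AZ-5576 and -0.34 with actinomycin D, beside -0.15 and -0.27 over all genes. These comparisons share the DMSO libraries. With TMM scaling the split was 6 lower and 3 higher with AZ-5576, the higher ones being MED24, MED15 and MED27, and 7 lower and 1 higher (MED24) with actinomycin D. Of all genes that scaling called 12.1% with AZ-5576 and 13.3% with actinomycin D, both directions together. Without the second DMSO library 5 members fell with AZ-5576.

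**Figure D2:**
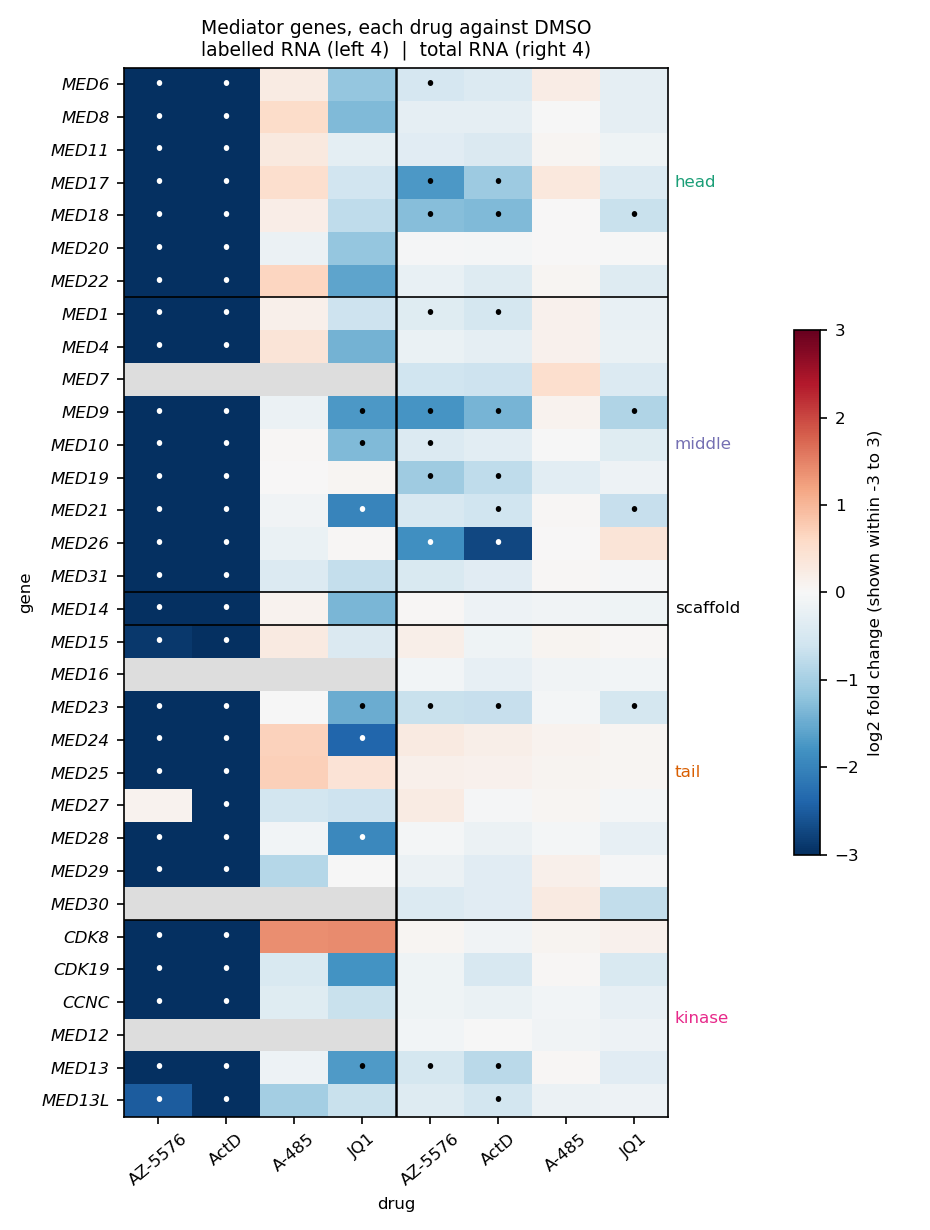
Log2 fold change of each Mediator gene (rows, by module) with each drug against DMSO, in labelled RNA (left 4 columns) and total RNA (right 4). Colours run from -3 to 3, dots mark adjusted p under 0.05, grey means not tested; total RNA is lower for MED26, MED9, MED17, MED18 and MED19 with both AZ-5576 and actinomycin D and no cell is called with A-485.

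In the head, MED18, which forms a movable jaw with MED20, and MED17 fell with both drugs. MED18 had 78.2 and 77.7 total RPM with AZ-5576 and 71.0 and 81.3 with actinomycin D, against 179 and 202 in DMSO. MED17 had 28.99 and 27.2 with AZ-5576 and 37.2 and 49.6 with actinomycin D, against 84.4 and 101 in DMSO. Neither drug overlapped DMSO for either gene. MED18 was 2.44-fold lower with AZ-5576 (edgeR adjusted p = 7.16e-07) and 2.50-fold lower with actinomycin D (3.03e-07). MED17 was 3.30-fold lower with AZ-5576 (edgeR adjusted p = 9.38e-07) and 2.13-fold lower with actinomycin D (0.000416). Of the other head genes MED6 was called with AZ-5576 (-0.51, SE 0.17, edgeR adjusted p = 0.0417), and MED20, the partner of MED18, had values of -0.03 and -0.05 with AZ-5576 and actinomycin D.

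The middle module held 5 of the 10 called members with each drug. MED26 had 50.9 and 37.4 total RPM with AZ-5576 and 20.4 and 26.6 with actinomycin D, against 148 and 166 in DMSO. All 4 drug libraries lay under every DMSO library, with actinomycin D the lowest. This was 3.57-fold lower with AZ-5576 (log2 -1.84, SE 0.20, edgeR adjusted p = 5.66e-09) and 6.65-fold lower with actinomycin D (log2 -2.73, SE 0.21, edgeR adjusted p = 1.06e-12), the largest fall of any member in both comparisons. At or near its 3′ end MED26 overlaps another annotated protein-coding gene on its own strand, AC008764.1, and an antisense gene. How the authors' counting used strand is not given in the sources used here.

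MED9 had 32.8 and 24.8 RPM with AZ-5576 and 25.8 and 47.8 with actinomycin D, against 94.4 and 101 in DMSO. MED19, a subunit at the hook of the middle module, had 124 and 133 with AZ-5576 and 161 and 160 with actinomycin D, against 266 and 275 in DMSO. For both genes all drug libraries were under DMSO. MED9 was 3.40-fold lower with AZ-5576 and 2.64-fold lower with actinomycin D, and MED19 was 2.10-fold and 1.68-fold lower. MED1 had 557 and 555 with AZ-5576 and 496 and 492 with actinomycin D, against 681 and 748 in DMSO, which was called with both (edgeR adjusted p = 0.0281 with AZ-5576 and 0.000697 with actinomycin D). The call with AZ-5576 was also lost when either AZ-5576 library was left out. MED10 was called with AZ-5576 only (-0.41) and MED21 with actinomycin D only (-0.61), and whether those drug effects differ is given below.

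Of the tail and the scaffold, 1 gene was called with each drug. MED23, a tail subunit that links signalling to Mediator, was that 1 of 9 tail genes, at 136 and 142 RPM with AZ-5576 and 137 and 137 with actinomycin D, against 204 and 237 in DMSO. MED24 had 3714 and 3674 with AZ-5576 and 3229 and 3722 with actinomycin D, against 3055 and 3089 in DMSO, above DMSO in every drug library yet not called with spike-in scaling. MED14 had 182 and 222 with AZ-5576 and 170 and 186 with actinomycin D, against 175 and 220 in DMSO, so the groups overlapped. The summed total RNA of the tail was 112% of DMSO with AZ-5576 and 101% with actinomycin D, beside 69.9% and 68.9% for the middle and 74.0% and 73.8% for the head. The tail sum rests mostly on MED24, MED15 and MED25, with means of 3072, 2091 and 1287 of 8784 RPM in DMSO. Gene by gene, the median log2 fold change in the tail was -0.05 with AZ-5576 and -0.17 with actinomycin D. It was -0.48 and -0.61 in the middle and -0.35 and -0.40 in the head.

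In the kinase module the large MED13 subunit moved and its kinases were not called. MED13 had 154 and 136 RPM with AZ-5576 and 130 and 109 with actinomycin D, against 194 and 224 in DMSO. It was lower without overlap, by 0.53 on the log2 scale with AZ-5576 (edgeR adjusted p = 0.0197) and 0.81 with actinomycin D (edgeR adjusted p = 0.000237). MED13L had 211 and 218 with AZ-5576 and 183 and 198 with actinomycin D, against 270 and 293 in DMSO, which was called with actinomycin D (edgeR adjusted p = 0.00412) and missed the threshold with AZ-5576 (0.0638).

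CDK8 had 140 and 158 RPM with AZ-5576 and 142 and 125 with actinomycin D, against 133 and 153 in DMSO. MED12 had 280 and 285 with AZ-5576 and 287 and 311 with actinomycin D, against 271 and 327 in DMSO. Both overlapped DMSO throughout. CCNC had 666 and 724 with AZ-5576 and 640 and 692 with actinomycin D, against 717 and 806 in DMSO, and CDK19 had 79.9 and 119 with AZ-5576 and 83.4 and 72.6 with actinomycin D, against 89.7 and 129 in DMSO. Neither was called with either drug, although both lay below DMSO in the 2 actinomycin D libraries, at 87.4% of DMSO for CCNC and 71.2% for CDK19. Some calls were lost when 1 library was left out. Without the second DMSO library MED6, MED10, MED13, MED23 and MED1 were no longer called with AZ-5576, nor MED13L and MED21 with actinomycin D. Except for MED23, each of these calls was also lost without at least 1 library of its drug.

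**Figure D3:**
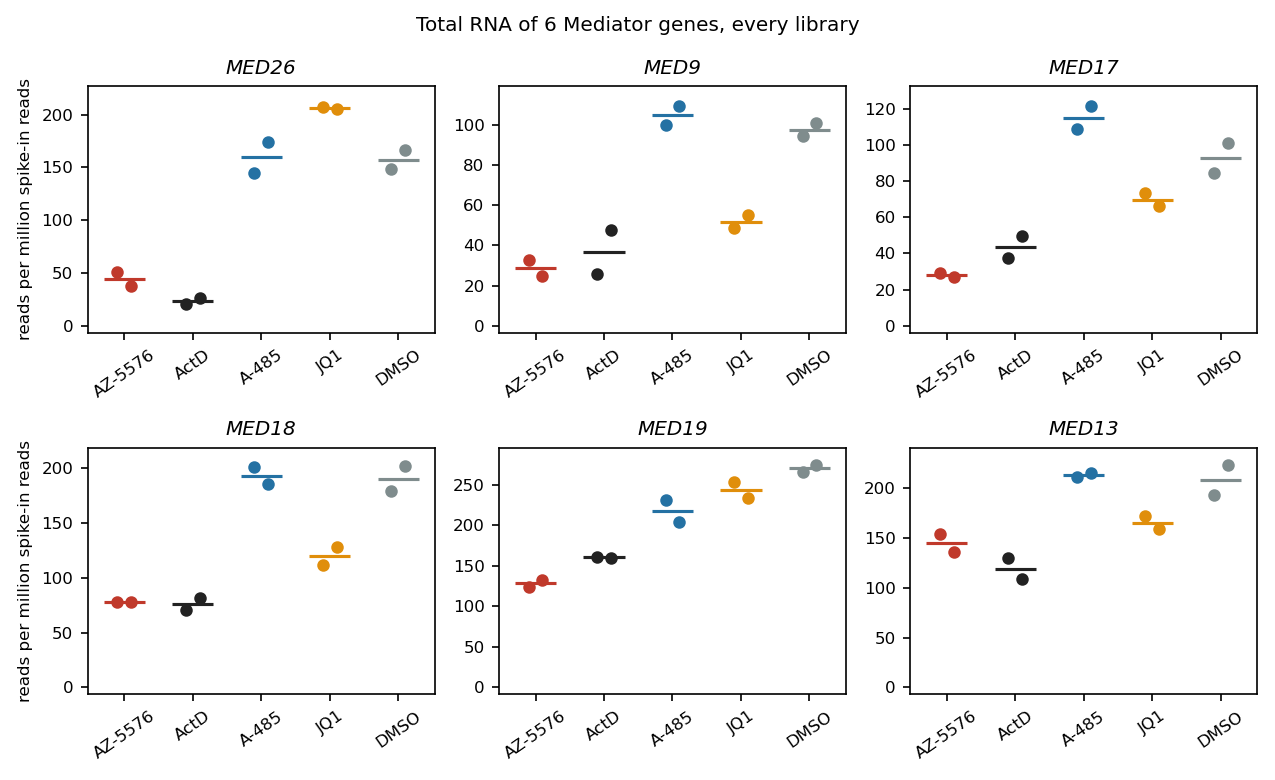
Total spike-in RPM (vertical axis, linear from 0) of MED26, MED9, MED17, MED18, MED19 and MED13 in every library; ActD is actinomycin D, dots are libraries and bars the mean of 2. AZ-5576 and actinomycin D libraries lie under both DMSO libraries in all 6, and MED26 with JQ1 (207 and 205) lies above DMSO (148 and 166).

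Most members that fell in total RNA had a high labelled share in DMSO, with MED10 (3.45%) as an exception under AZ-5576. Across the 32 members Spearman's rho between that share and the total log2 fold change was -0.82 with AZ-5576 and -0.87 with actinomycin D, beside -0.57 and -0.64 across 10409 genes. These are descriptions across genes, which are not independent replicates, and both axes draw on the same 2 DMSO libraries. The 5 members with the highest shares, MED26, MED17, MED9, MED18 and MED13, also had the 5 largest falls with actinomycin D. CDK19 and MED31 had shares of 10.5% and 7.82% and were not called with either drug.

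**Figure D4:**
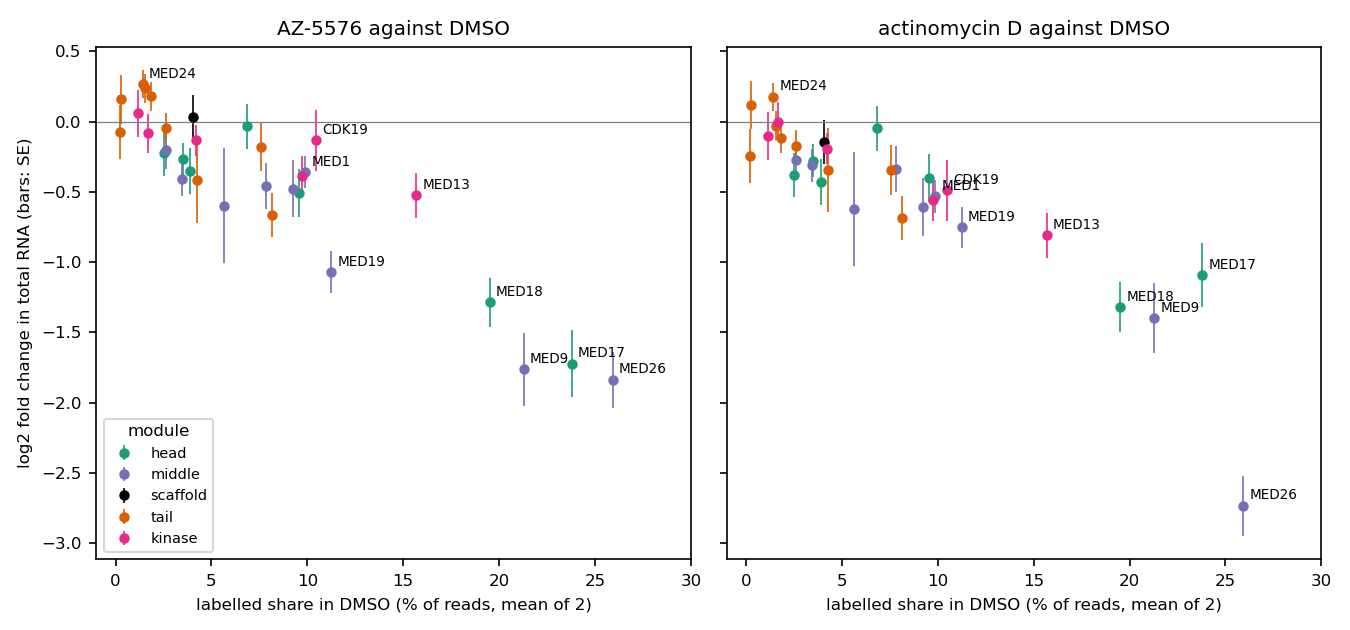
Labelled share in DMSO (horizontal axis, percent) against the log2 fold change in total RNA (vertical axis, bars are SE) for the 32 Mediator genes, coloured by module, with AZ-5576 (left) and actinomycin D (right). Genes with a share above 15% (MED13, MED18, MED9, MED17 and MED26) lie lowest with actinomycin D, and MED24, MED25 and MED27 of the tail lie near 0 with shares below 2%.

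The 3′ untranslated regions were searched for AU-rich letters, which in many short-lived mRNAs bind decay factors. The pentamer ATTTA was in 24 of the 31 members whose region could be read from GENCODE release 29, beside 69.3% of 10957 genes, and MED26 had 1 copy in 1111 bases. The longer TTATTTATT was in 2 members (6.5%), beside 8.2% of genes. Both are the large kinase-module subunits, and 1 window of each is printed 5′ to 3′ on the mRNA strand with the element in capitals. MED13 lies on chromosome 17 and MED13L on chromosome 12.
MED13: ctcttctcTTATTTATTgtaagttt
MED13L: cattttgtTTATTTATTttaatttg

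AZ-5576 and actinomycin D were also compared with each other in total RNA. MED26 was the 1 of 32 members called, higher with AZ-5576 by 0.90 on the log2 scale (SE 0.23, edgeR adjusted p = 0.0264), where 2% of all genes were higher and 0.371% lower. Its libraries did not overlap, at 50.9 and 37.4 RPM with AZ-5576 and 20.4 and 26.6 with actinomycin D. The call was lost when either actinomycin D library or the first AZ-5576 library was left out, in a fit of these 2 groups alone and with TMM scaling. MED17 had the lowest value, -0.63 (SE 0.25, edgeR adjusted p = 0.252), and MED6, MED10 and MED21, each called against DMSO with 1 of the 2 drugs, had -0.10, -0.10 and 0.13, none of them called.

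With JQ1 new RNA was lower for some members and near the DMSO level for others. Summed labelled counts were 709 and 779 with JQ1, against 1138 and 1107 in DMSO, or 57.0% of DMSO per spike-in read beside 64.7% for all human labelled reads. Of 28 members 7 fell and none rose (edgeR adjusted p under 0.05), 25% of members beside 28.6% of all genes lower and 1.26% higher, so the share called is near the background. The median was -0.96 over members and -0.85 over all genes. With TMM scaling 1 fell, MED24, where 10.7% of all genes were called. Without the first or the second DMSO library 3 and 2 fell.

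MED24 had the largest fall, with 13 and 23 labelled counts with JQ1, against 81 and 81 in DMSO. It was 5.20-fold lower (log2 -2.38, SE 0.38, edgeR adjusted p = 4.10e-08), and the call held in all 10 alternatives run, with values of -2.88 to -1.55. The tail subunits MED28 (14 and 11 counts with JQ1, against 38 and 45 in DMSO) and MED23 (18 and 10 against 27 and 40) fell by 1.94 and 1.48 on the log2 scale. MED28 has 8 annotated pseudogene copies, with which reads may be shared. Copies are also annotated for MED15, some of them transcribed, and for MED6, MED13, MED14 and CDK8. At or near their 3′ ends MED28, MED23, MED8 and MED1 overlap genes on the opposite strand.

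In the middle module MED9 had 14 and 13 labelled counts with JQ1, against 41 and 36 in DMSO, without overlap (log2 -1.72, SE 0.53, edgeR adjusted p = 0.00783). MED21 (0 and 11 counts against 16 and 22, edgeR adjusted p = 0.0383) and MED10 (11 and 19 against 34 and 31, edgeR adjusted p = 0.0492) were also called. The calls of MED9, MED21, MED10 and MED23 were lost without either DMSO library. All of these calls were also lost with TMM scaling. Those of MED21, MED10 and MED23 were lost with no low-count filter, and those of MED21 and MED10 with DESeq2. MED26 had 91 and 88 counts with JQ1 against 74 and 77 in DMSO, and MED19 had 63 and 74 against 57 and 56, with log2 values of 0.02 and 0.06. MED1 had 98 and 99 counts with JQ1 against 122 and 140 in DMSO, which missed the threshold (-0.63, SE 0.27, edgeR adjusted p = 0.0615). The scaffold gene MED14 had 10 and 4 against 7 and 24, which overlapped.

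In the kinase module MED13 had 23 and 20 labelled counts with JQ1, against 61 and 60 in DMSO (log2 -1.71, SE 0.43, edgeR adjusted p = 0.000909). MED13L had 35 and 40 against 38 and 64, CCNC 57 and 30 against 68 and 50, and CDK19 0 and 13 against 24 and 16, none of them called. CDK8 had 10 and 9 counts against 5 and 1, and MED12 had 0 and 1 against 7 and 12. No head gene passed, with MED8 nearest (12 and 15 counts with JQ1, against 28 and 30 in DMSO, edgeR adjusted p = 0.0524).

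Total RNA under JQ1 fell for 4 of 32 members and rose for none (edgeR adjusted p under 0.05), 12.5% of members beside 7.35% of all genes lower and 0.837% higher. MED9 had 48.8 and 54.9 RPM with JQ1, against 94.4 and 101 in DMSO (log2 -0.91, SE 0.24). MED21 had 58.8 and 77.6 against 103 and 117, MED18 had 112 and 128 against 179 and 202, and MED23 had 144 and 162 against 204 and 237. All 4 lay below DMSO without overlap. None of the 4 was called without the first JQ1 library, without the second DMSO library or with TMM scaling. MED26 was on the other side, with 207 and 205 RPM with JQ1, against 148 and 166 in DMSO, above both DMSO libraries but not called (0.39, SE 0.18, edgeR adjusted p = 0.165). MED24, despite its fall in new RNA, had 3064 and 3382 total RPM with JQ1 against 3055 and 3089 in DMSO.

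A-485 left the new RNA of the complex near the level of DMSO. Summed labelled counts were 1166 and 1348 with A-485, against 1138 and 1107 in DMSO, or 105% per spike-in read. By module the labelled sums were 124% of DMSO in the head, 99.8% in the middle, 120% in the tail and 75.6% in the kinase module. Without MED24, left out after its values were seen, the tail was at 103%. No member was called in either direction by edgeR, beside 4.86% of all genes lower and 0.163% higher. At an unadjusted p under 0.05 there were 2, MED24 (0.69, SE 0.31) and MED13L (-1.01, SE 0.45), and DESeq2 also called none. MED24 had 131 and 147 labelled counts with A-485, above 81 and 81 in DMSO, and was called in the fit of these 2 groups alone (edgeR adjusted p = 0.0432).

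For some members the 2 A-485 libraries lay apart. MED26 had 34 and 107 labelled counts with A-485 against 74 and 77 in DMSO, MED13 had 38 and 78 against 61 and 60, and MED13L had 39 and 15 against 38 and 64. For MED26 and MED13 they lay on either side of DMSO. For MED13L both lay below DMSO when scaled to the spike-in, at 19.8 and 7.56 RPM against 20.0 and 35.2. The higher of them was close to the lower DMSO library. MED1 had 137 and 176 counts against 122 and 140, MED14 had 16 and 20 against 7 and 24, and CCNC had 44 and 53 against 68 and 50. CDK19 had 12 and 19 against 24 and 16, CDK8 had 11 and 6 against 5 and 1, and MED12 had 5 and 7 against 7 and 12. In total RNA no member was called by edgeR (1.2% of all genes were lower and 0.0343% higher), 1 member had an unadjusted p under 0.05, MED19 (-0.31), and DESeq2 called none. The largest total value was 0.51 for MED7, a thinly covered gene.

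**Figure D5:**
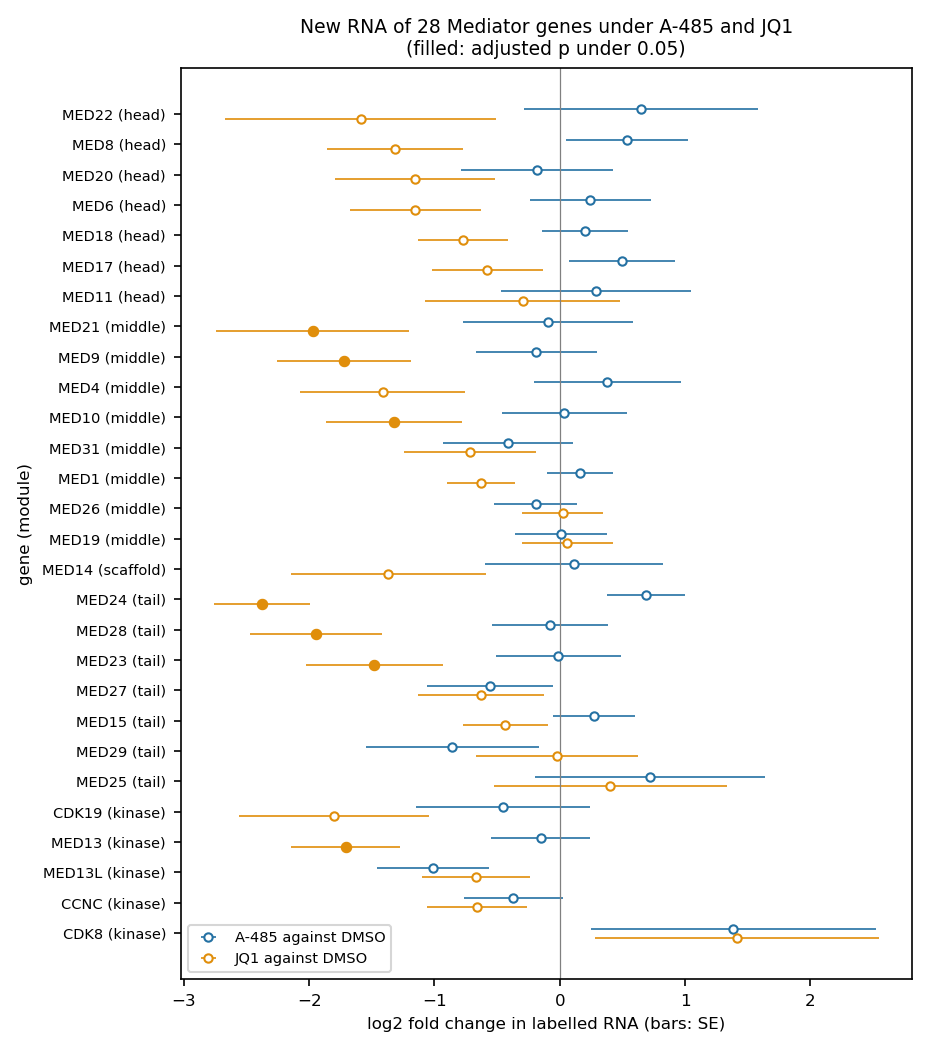
Log2 fold change in labelled RNA (horizontal axis, bars are SE) of the 28 tested Mediator genes, grouped by module, for A-485 (blue) and JQ1 (orange), each against the same 2 DMSO libraries; filled points have an adjusted p under 0.05. Of JQ1 points 7 are filled, the lowest being MED24 at -2.38, and no A-485 point is filled.

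A-485 was set against JQ1 directly, as 2 inhibitors of different chromatin steps. In labelled RNA 12 of 28 members were higher with A-485 and none lower (edgeR adjusted p under 0.05), 42.9% of members beside 24.8% of all genes higher and 3.14% lower. The median difference was 1.03 over members and 0.72 over all genes. With TMM scaling 1 was higher, MED24, and 1 lower, MED26 (-0.94), where 13.8% of all genes were called. The count was 5 without the first A-485 library, 5 without the first JQ1 library and 2 without the second A-485 library.

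MED24 differed most, with 131 and 147 labelled counts with A-485, against 13 and 23 with JQ1, 8.37-fold higher (log2 3.07, SE 0.37, edgeR adjusted p = 6.06e-14). That call held in all 10 alternatives, with values of 2.36 to 3.57. MED28 had 33 and 51 counts with A-485 against 14 and 11 with JQ1 (log2 1.87), MED8 of the head had 44 and 46 against 12 and 15 (1.85), and MED4 of the middle had 28 and 30 against 5 and 13 (1.79). MED13 had 38 and 78 with A-485 against 23 and 20 with JQ1 (1.55). MED9, MED23, MED6, MED10, MED17, MED18 and MED1 were the other members called, at 0.80 to 1.54. MED26 (-0.22), MED19 (-0.05) and MED27 (0.07) had values near 0 and were not called.

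Other parts of the initiation machinery were counted in the same fits. In total RNA 4 of 34 general transcription factor genes fell with AZ-5576, 0 of 12 RNA polymerase II subunit genes and 2 of 14 Integrator genes, and none rose. The first and the last of these shares are 11.8% and 14.3%, near the 12.9% of all genes. With actinomycin D 11, 2 and 5 of them fell, or 32.4%, 16.7% and 35.7%, beside 19.7% of all genes. Between A-485 and JQ1 in labelled RNA, 5 of 28 tested general transcription factor genes were higher with A-485 and 1 lower, 5 of 11 polymerase genes higher and 1 lower, and 3 of 11 Integrator genes higher. These shares higher are 17.9%, 45.5% and 27.3%, beside 24.8% of all genes. With A-485 none of the 3 lists had a called member in labelled or total RNA. Whether Mediator differs from these lists or from all genes was not tested, and the shares of all genes were not matched for reads.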

How the data were processed

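Per the labels' protocols, RNA with 5% S2 (Drosophila) RNA added was treated with iodoacetamide and sequenced as QuantSeq 3′ FWD libraries. The authors deposited 3 tables of raw counts per gene (all human reads, labelled human reads, spike-in reads). Per the submitters' processing notes, Trim Galore 0.6.5, bcl2fastq 2.17.1.14 and bedtools were used with hg38 and dm6. For the aligner, conversion caller and strand setting, nothing is stated in those sources. Spike-in counts ran from 1817677 to 2212752.

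Counts were tested with edgeR 4.0.16 (robust quasi-likelihood, R 4.3.3), spike-in totals as library sizes, 1 model for the 10 libraries, a filter of 10 or more counts in 2 or more libraries, and adjustment by Benjamini-Hochberg over 7996 labelled or 14572 total genes. The fits were first run on simulated data with changes in some genes of 1 group. That setting does not cover the losses of nearly all label with AZ-5576 and actinomycin D. The biological coefficient of variation was 24.8% in labelled and 10.9% in total RNA, with 5 residual degrees of freedom. Alternatives were TMM, DESeq2 1.42.0, 2 other filters, the 2 groups alone, a replicate block and each library left out. Values per library are given for 9 fixed members (the kinase module, MED1, MED14 and MED26) and for up to 5 called members per direction with the largest change whose higher group averaged at least 20 labelled or 100 total counts; other members with values were chosen after these were seen. The members and lists were chosen with earlier results of these data known.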

Additional observations from a re-analysis of the deposited data

How the results depend on the processing

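With 2 libraries a group, low labelled counts limit what can be seen. Scaling to human reads (TMM) moved the median of all genes from -5.94 to -3.11 for labelled RNA with AZ-5576, from -7.67 to -6.64 with actinomycin D, from -0.85 to -0.02 with JQ1 and from 0.72 to 0.02 for A-485 against JQ1. In total RNA it moved from -0.15 to 0.00 with AZ-5576, from -0.27 to -0.02 with actinomycin D and from -0.19 to 0.00 with JQ1. This scaling is built to take out a change shared by most genes. It did so only in part for labelled RNA with AZ-5576 and actinomycin D, where the medians stayed at -3.11 and -6.64.

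With TMM the number of members called in labelled RNA was 7 with AZ-5576 (27 with spike-in scaling), 1 with actinomycin D (28), 1 with JQ1 (7) and 2 for A-485 against JQ1 (12), and in total RNA 0 with JQ1 (4) and 0 for AZ-5576 against actinomycin D (1). Of all genes, TMM called 33.5%, 8.28%, 10.7% and 13.8% in those labelled comparisons and 3.44% and 1.8% in those of total RNA. With TMM the labelled log2 fold changes with AZ-5576 reversed for MED18 (0.0357), MED15 (0.61), MED13 (0.13) and MED13L (1.00), none called. With no low-count filter 4 labelled members were called with JQ1 and 6 for A-485 against JQ1. In a fit of the 2 groups alone 1 was called with A-485 in labelled RNA and 0 for AZ-5576 against actinomycin D in total RNA. Except for TMM, the share of all genes called in an alternative is not given here, above or below. Those counts therefore do not tell a change among the members from one over all genes.

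Leaving out 1 library gave 2 to 5 members called in labelled RNA with JQ1, 2 to 9 for A-485 against JQ1, and in total RNA 5 to 10 with AZ-5576, 0 to 4 with JQ1 and 0 to 1 for AZ-5576 against actinomycin D. The median labelled share of members in DMSO was 5.01 to 6.00%. The cause of these changes was not tested. Of the single-gene results under all alternatives, 2566 kept direction and side of the threshold, 175 that were not called either way changed sign, 169 lost and 37 gained a call, and 4 called values reversed. In total RNA the falls of MED26, MED9, MED17, MED18 and MED19 with AZ-5576 and with actinomycin D were called under all 10 alternatives.

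Same-numbered libraries deviated together only weakly (correlations of -0.06 to 0.20), and the labels give no shared batch, so the numbers were not taken as pairs. With the replicate number as a block, 14 members were called in total RNA with AZ-5576 (12 lower, 2 higher) and 13 with actinomycin D. In total RNA 6 were called with JQ1 and 2 for AZ-5576 against actinomycin D. In labelled RNA 6 were called with JQ1 and 11 for A-485 against JQ1. The share of all genes called with the block is not given, so a gain among members cannot be told from a general one.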
